A study of Arabidopsis thaliana with 4 samples.

Results

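The genes described here are the AGAMOUS (AG) target genes of Arabidopsis thaliana whose annotation places them in the ubiquitin pathway. They are the entries of the authors' deposited target table in which the annotation before its first semicolon contains F-box, ubiquitin, U-box or SKP1. UFO (AT1G30950), an F-box gene of floral meristems, was left out of the set. The rule found 55 of 1958 target genes (2.81%). Of these, 52 are described together, and 3 that lie in a broad run of peaks on chromosome 1 are described apart.

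AG is a MADS-domain transcription factor needed for stamen and carpel identity. It was tagged with green fluorescent protein (GFP) and recovered with an anti-GFP antibody. DNA bound by it was mapped by chromatin immunoprecipitation and sequencing (ChIP-seq) in inflorescences. The AG-GFP plants were AG-GFP AP1-GR ap1 cal and the negative control plants AP1-GR ap1 cal, both in the Ler-0 background, with 2 libraries in each group. All plants, controls included, carried 35S:AP1-GR with the ap1-1 and cal-1 alleles, were about 4 weeks old, and were treated with 10 µM dexamethasone, which starts flower formation, 4 days before sampling, when flowers had reached an early to intermediate stage. The broadly active 35S promoter drives AP1-GR, the promoter of AG-GFP is not given in the sources used here, and whole inflorescences mix organs and cell types. The tables give 1 score per peak or gene and no value per library, so a score has no replicate error, the depth is unknown, and all scores below are the authors' and describe their list only.

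Ubiquitin is a small protein that is attached to other proteins and often sends them to the proteasome for breakdown. An activating enzyme (E1) passes it to a conjugating enzyme (E2), and a ligase (E3) selects the protein to be tagged. In the SCF ligases, a SKP1-like adaptor joins a cullin to an F-box protein, which binds the substrate, often through kelch repeats or other repeats. U-box and RING proteins are ligases that work with an E2 directly, and ubiquitin proteases remove the tag. Plants have a very large F-box family, with members that perceive hormones and light and, in the flower, act with LFY (UFO) or limit organ growth.

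By annotation, the 52 genes comprised 33 F-box entries, 7 U-box genes, 3 entries with SKP1 in the annotation and 9 other ubiquitin entries. The F-box entries were 8 kelch F-box genes, 18 other F-box genes and 7 that the annotation calls only related or similar to F-box proteins. The word rule is wider than the ubiquitin pathway proper: SUMO3 and SIZ1 belong to the pathway of the related modifier SUMO, and AT2G41160 has a ubiquitin-associated domain only. All 55 genes are protein-coding in the RefSeq gene table. They lay on all chromosomes, with 14, 6, 13, 6 and 13 of the 52 on chromosomes 1 to 5.

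The highest scores of the 52 genes were close to those of the other target genes. Their median was 145.37 (quartiles 83.08 and 227.68, range 41.45 to 1192.19), against 143.81 (quartiles 78.17 and 285.88) for the 1903 other target genes. At or above the median of all peaks, 139.67, were 27 of 52 genes (51.9%), beside 51.6% of the other target genes. A score of 500 or more was listed for 5 of 52 (9.62%), beside 11.9% of the other target genes. The median was 215.74 for the 8 kelch F-box genes, 145.37 for the 18 other F-box genes, 128.71 for the 7 related entries, 357.32 for the 3 SKP1 entries, 101.69 for the 7 U-box genes and 148.96 for the 9 ubiquitin entries. The groups overlapped widely in score, and no test between them was made.

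**Figure D1:**
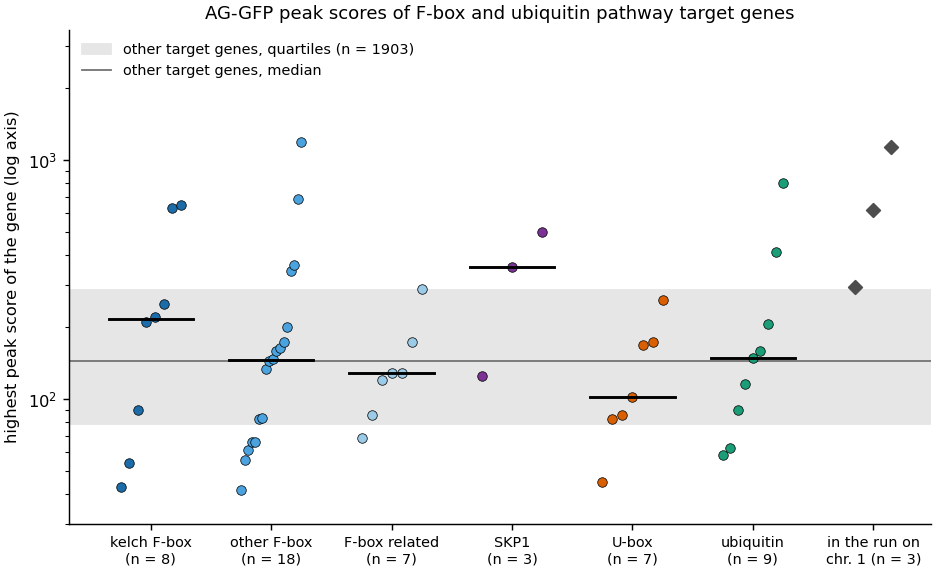
Highest AG-GFP peak score of each gene (log axis) by annotation group, with 1 point per gene and a black bar at the group median. The grey band spans the quartiles of the 1903 other target genes (78.17 to 285.88) and the line is their median of 143.81. All groups have genes inside the band, and diamonds mark the 3 genes in the run of peaks on chromosome 1.

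The peaks were mostly upstream, as were those of the other target genes. The regions reach 3000 bp upstream but only 1000 bp downstream. Upstream peaks at any distance were listed for 40 of 52 genes (76.9%), beside 69.3% of the other target genes. Within 1000 bp upstream the count was 17 (32.7%, other target genes 35.3%), at 1000 to 2000 bp it was 13 (25%, other target genes 19.1%) and at 2000 to 3000 bp 11 (21.2%, other target genes 19.3%). A peak at 1000 to 3000 bp was thus listed for 23 of 52 genes (44.2%), beside 37.2%.

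Peaks inside the gene were few. They were listed for 3 of 52 genes (5.77%), beside 15.4% of the other target genes, and peaks within 1000 bp downstream for 9 (17.3%), beside 19.3%. The median gene length of the 52 genes was 1801.5 bp, against 2298.5 bp in other target genes that code for protein and 2790.5 bp in those of them with a peak inside. The part of gene length in the count of peaks inside genes was not tested.

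**Figure D2:**
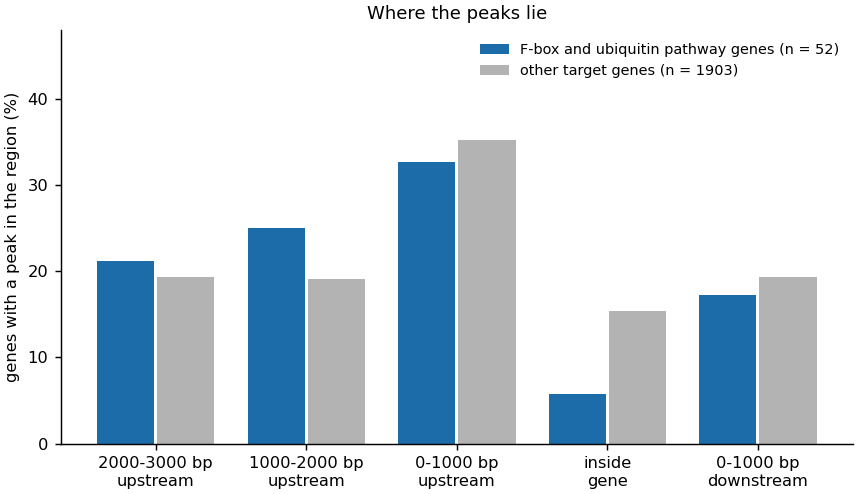
Share of genes (%) with an AG-GFP peak in each of the 5 regions of the target table, for the 52 F-box and ubiquitin pathway genes (blue) and the 1903 other target genes (grey). The bars differ most inside the gene, at 5.77% against 15.4%. A gene with peaks in several regions counts in each of them.

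Peak positions were also counted by annotation group, beside 69.3% of the other target genes with an upstream peak and 19.3% with a downstream one. Of the 33 F-box entries, 28 (84.8%) had an upstream peak, 12 within 1000 bp, and 3 (9.09%) had a peak downstream. Of the 7 U-box genes, 3 (42.9%) had an upstream peak and 4 (57.1%) had theirs within 1000 bp downstream. The 9 ubiquitin entries had 7 upstream and 2 downstream. These groups are small and no test between them was made.

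Nearly all genes had a peak in 1 region. AT3G63220 was the only one of the 52 with peaks in 2 regions (1.92%, other target genes 7.72%). Peaks per gene could be counted only where all 5 deposited regions were recovered on 1 strand and not on both, which was so for 45 of the 52. A lone peak inside a gene fits both strands, so such genes were not counted. AT2G41170, SKIP5 and FBW2, the members with a peak inside the gene, were not among the 45. Of these 45 genes, 2 had more than 1 peak position in the stretch from 3000 bp upstream to 1000 bp downstream (4.44%), beside 9.77% of the other target genes counted in this way. These were AT3G63220 and KMD1.

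**Figure D3:**
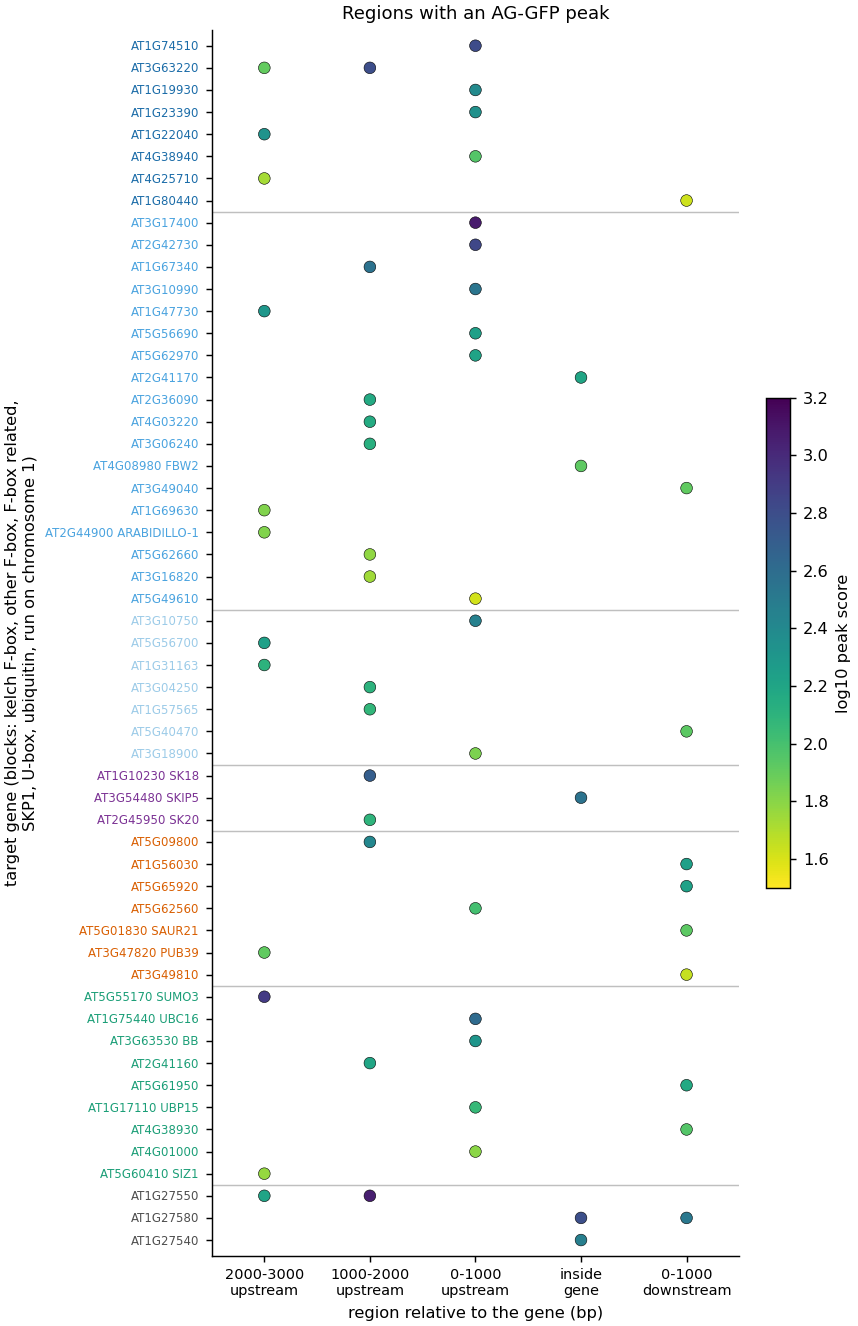
Regions with an AG-GFP peak (columns, in bp relative to the gene) for each of the 55 genes (rows, in blocks by annotation group and falling score within a block). The colour gives the log10 peak score. Most rows hold 1 point, and 4 of the 7 U-box genes have it in the downstream column.

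Most of these peaks also belonged to a neighbouring gene. All 52 genes were linked to a peak, and the highest scores rested on 49 distinct peaks. A peak that was also listed for another target gene lay at 43 of 52 genes (82.7%), beside 74.3% of the other linked target genes. The gene was the nearest protein-coding gene to its peak in 22 of 52 cases (42.3%), beside 57.3%. Position does not tell which of the genes sharing a peak is affected by it.

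In 3 cases, neighbouring members shared a peak with each other. AT2G41160 and the F-box gene AT2G41170 shared 158.45, the UFD1 family gene AT4G38930 and the kelch F-box gene AT4G38940 shared 89.53, and the F-box entries AT5G56690 and AT5G56700 shared 173.69. The peak at 89.53 was also listed for AT4G38932, which lies between the pair in locus order, and that at 173.69 also for SYNC1. The pairs are thus 3 peaks and not 6 separate events.

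The peak with the highest score among the 52 genes lay at an F-box gene. AT3G17400 scored 1192.19 within 1000 bp upstream, on chromosome 3 from 5954327 to 5954761 (TAIR10), the peak ranked 42 of 1421. It was the nearest gene to this peak, which was also listed for MTO3 and AT3G17410. AT2G42730 scored 687.11 within 1000 bp upstream, on chromosome 2 from 17791419 to 17791732, and shared its peak with RPL16A, a ribosomal protein gene, and AT2G42750. Both of these F-box genes carry no name in the gene table.

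Further F-box entries without a kelch annotation scored from 289.21 to 365.01. AT1G67340, annotated as an F-box gene with a MYND zinc finger, had 365.01 at 1000 to 2000 bp upstream. Its peak, from 25228707 to 25229096 on chromosome 1, was listed for no other target gene. AT3G10990 had 344.18 within 1000 bp upstream, with AT3G11000 nearer to it. AT3G10750, which is annotated only as similar to an F-box protein, had 289.21 within 1000 bp upstream, shared with ASD1 and the microRNA gene MIR158a.

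The remaining F-box entries at or above the median peak scored between 143.81 and 199.97. AT1G47730 had 199.97 at 2000 to 3000 bp upstream, with AT1G47740 nearer. AT5G62970 had 162.95 within 1000 bp upstream, AT2G36090 had 146.93 at 1000 to 2000 bp upstream with no other target gene, and AT4G03220 had 143.81 at 1000 to 2000 bp upstream beside XTH9, a cell wall enzyme gene. The pair AT5G56690 and AT5G56700 at 173.69 lay nearest to SYNC1.

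Kelch F-box genes included 5 of 8 at or above the median peak. AT1G74510 scored 646.91 within 1000 bp upstream, on chromosome 1 from 28005135 to 28005400, and was the only target gene listed for that peak. AT3G63220 scored 630.5 at 1000 to 2000 bp and 81.04 at 2000 to 3000 bp upstream. Its stronger peak spanned 710 bp on chromosome 3 from 23360661 to 23361370, and AT3G63230 was the nearer gene to both.

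The other 3 of these kelch genes scored 249.06 (AT1G19930), 220.55 (AT1G23390) and 210.92 (AT1G22040). AT1G23390 (within 1000 bp upstream) and AT1G22040 (2000 to 3000 bp upstream) shared their peak with no other target gene, while AT1G19930 had the sulfate assimilation gene APS2 nearer. KMD1 (AT1G80440), a KISS ME DEADLY F-box gene known to lower cytokinin response, had 42.88 within 1000 bp downstream, among the lowest scores. AT4G38940 scored 89.53 and AT4G25710 scored 53.86.

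Of the F-box genes with a known role that scored low, FBW2 (AT4G08980), known for acting on ARGONAUTE1, had 83.31 inside the gene, with no other target gene on the peak. ARABIDILLO-1 (AT2G44900), an F-box gene with armadillo repeats that promotes lateral roots, had 65.95 at 2000 to 3000 bp upstream, where the homeobox gene HB4 is nearer. AT3G16820 had 55.32, with the corepressor gene TPR2 nearer. AT5G49610 had the lowest score of the 52, 41.45, within 1000 bp upstream on a peak of 53 bp that was also listed for TAS3b.

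SKP1-related entries were 3. SK18 (ASK18, AT1G10230), a SKP1-like adaptor gene, scored 497.83 at 1000 to 2000 bp upstream. The peak ran from 3353982 to 3354312 on chromosome 1 and was shared with AT1G10220, while AT1G10225 was the nearest protein-coding gene. SK20 (ASK20, AT2G45950) scored 124.79 at 1000 to 2000 bp upstream, with the aquaporin gene PIP1B nearer. SKIP5 (AT3G54480), annotated as a partner of SKP1, scored 357.32 inside the gene, at 20170676 to 20170885 of chromosome 3. It was the nearest gene to that peak, which was also listed for AT3G54470 and RPB5E. Of the 21 SKP1-like genes of the gene table, 2 (9.52%, 95% exact Clopper-Pearson interval 1.17 to 30.4%) were target genes, beside 6.62% of all protein-coding nuclear genes. The canonical adaptors ASK1 and ASK2 were not in the table. Such intervals cover counting error only and treat genes as independent.

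U-box genes had low to middle scores. AT5G09800 had the highest, 260.21 at 1000 to 2000 bp upstream, with the peptide gene IDL3 nearer to the peak. AT1G56030 (173.69) and AT5G65920 (168.29) had theirs within 1000 bp downstream and were the nearest genes. AT1G56030 is annotated with a MIF4G domain beside the U-box, and its peak of 842 bp was the widest behind any highest score of the 52 genes.

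The other U-box genes were below the median peak. AT5G62560 had 101.69 within 1000 bp upstream, PUB39 (AT3G47820) had 82.37 at 2000 to 3000 bp upstream, and AT3G49810 had 44.86 within 1000 bp downstream. AT5G01830 had 85.33 within 1000 bp downstream, with the growth regulator gene OFP1 nearer. The annotation calls it a U-box gene and the gene table names it SAUR21. Of 23 genes named PUB in the gene table, 2 were target genes (8.7%, exact interval 1.07 to 28%, all protein-coding genes 6.62%). These were PUB39 and, outside the annotation rule, PUB8. The other U-box genes described here are not among the 23, so this is not the share of the whole U-box family.

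Among enzymes of ubiquitin transfer, the E2 gene UBC16 (AT1G75440) scored 410.94 within 1000 bp upstream, on chromosome 1 from 28313304 to 28313532, with no other target gene on the peak. BB (BIG BROTHER, AT3G63530), the E3 ligase gene that limits floral organ size, scored 205.6 within 1000 bp upstream, on chromosome 3 from 23458585 to 23459244, a peak of 660 bp to which AT3G63540 is nearer. UBP15 (AT1G17110), a ubiquitin protease gene that promotes organ growth, scored 115.74 within 1000 bp upstream, with CAT8 nearer. Of the 27 genes named UBP, UBP15 was a target gene (3.7%, exact interval 0.0937 to 19%, all protein-coding genes 6.62%).

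The remaining ubiquitin entries spanned 58.44 to 806.07. SUMO3 (AT5G55170), which encodes a SUMO modifier, had the highest score among them, 806.07 at 2000 to 3000 bp upstream. This peak spans 22388344 to 22388697 of chromosome 5, and AT5G55180 was the nearer gene. SIZ1 (AT5G60410), the SUMO ligase gene, had 58.44 at 2000 to 3000 bp upstream, also listed for MIR391. AT5G61950, related to ubiquitin carboxyl-terminal hydrolases, had 148.96 within 1000 bp downstream, with ML1 nearer. The ubiquitin family gene AT4G01000 had 62.03.

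Below the median peak were 25 of the 52 genes, with scores from 41.45 to 133.69. Those of them not named above were AT3G06240 (133.69), AT1G31163 and AT3G04250 (both 128.71), AT1G57565 (120.56), AT5G40470 (85.33), AT3G49040 (82.37), AT3G18900 (68.54), AT1G69630 (65.95) and AT5G62660 (60.91). All are F-box or F-box-related entries. AT1G57565 shared its peak with the gene MYB50, AT3G04250 with SEC, and AT3G18900 with MIR418.

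Of the 52 genes, 9 had a highest peak that was listed for no other target gene, and 7 of these 9 were at or above the median peak. Beside AT1G74510, UBC16, AT1G67340, AT1G23390, AT1G22040, AT1G56030 and AT2G36090, these were AT5G40470 and FBW2. For these genes the link of peak and gene does not depend on a choice between target genes. Neither count was made in this form for the other target genes, so neither is shown to be particular to this set. A peak also listed for another target gene lay at 82.7% of the 52 genes, beside 74.3% of the other linked target genes. Genes without any shared peak were thus a smaller share of this set.

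The peaks were of ordinary width. The 49 peaks behind the highest scores had a median width of 256 bp (quartiles 158 and 330 bp, range 53 to 842 bp), against 234 bp for all 1421 peaks (quartiles 154 and 339 bp). Many F-box genes have near-identical copies, and the treatment of reads that match several copies is not given in the sources used here. Assignments at such genes, and at Ler-0 sequence that differs from the Columbia reference, are uncertain.

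**Figure D4:**
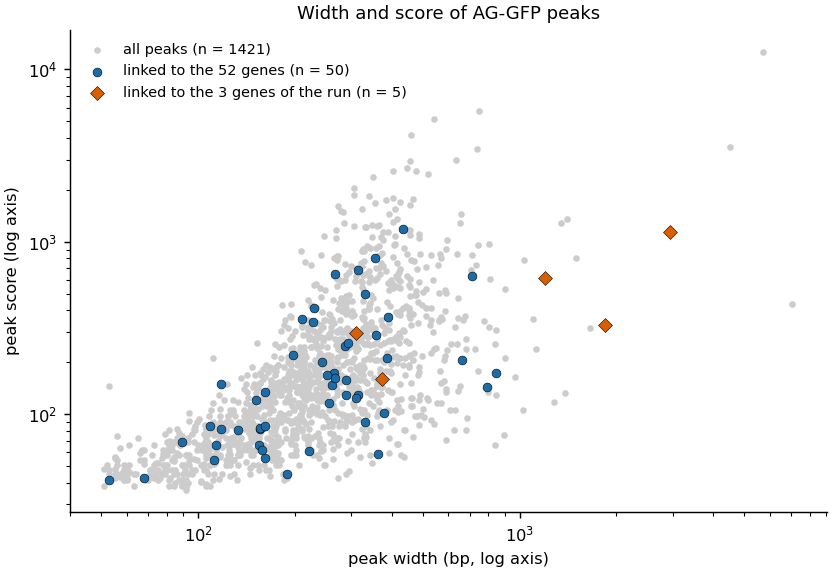
Width (bp) and score of AG-GFP peaks, both on log axes. Grey points are all 1421 peaks, blue points the 50 peaks linked to the 52 genes and orange diamonds the 5 linked to the 3 genes of the run on chromosome 1. Blue points span 53 to 842 bp, while 3 of the 5 diamonds are wider than 1000 bp.

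The 3 F-box genes on chromosome 1 lay in a run of 14 peaks, each within 2000 bp of the next, from 9567556 to 9592023. Peaks covered 70.2% of this stretch of 24468 bp, and 5 of the 16 peaks over 1000 bp wide in the whole list were in it. AT1G27550 had 1138.4 at 1000 to 2000 bp upstream, on a peak of 2942 bp from 9568759 to 9571700, and 160.72 at 2000 to 3000 bp upstream. AT1G27555 was the nearest protein-coding gene to both peaks, and the weaker peak was also listed for AT1G27565. AT1G27580 had 618.23 inside the gene, on a peak of 1197 bp from 9590827 to 9592023, and 331.18 downstream, on a peak of 1843 bp. AT1G27540 had 295.51 inside the gene on a peak of 309 bp. All 3 genes carry only the annotation F-box family protein. The run also holds AT1G27570, annotated as a phosphatidylinositol kinase gene, with the widest peak of the list, 7045 bp, and AT1G27565.

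**Figure D5:**
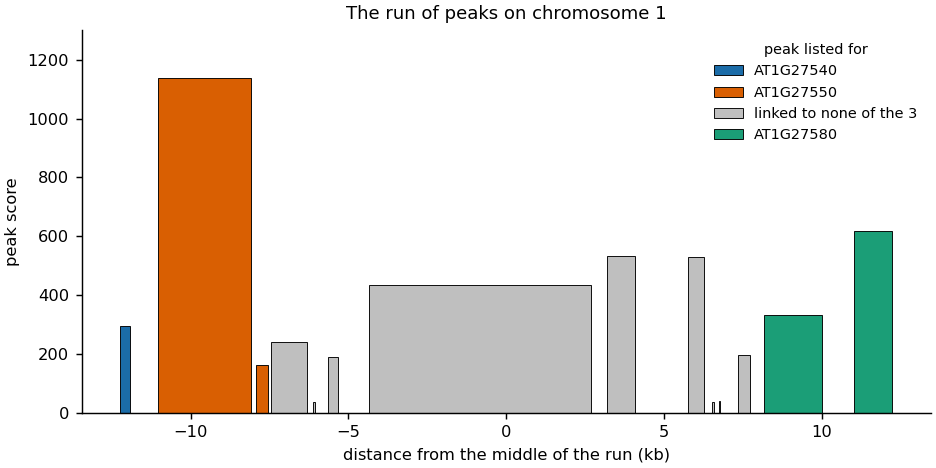
Peak score against distance (kb) from the middle of the run of 14 peaks on chromosome 1. Each bar is as wide as its peak and its colour names the F-box gene that lists it. Scores run from 38.14 to 1138.4, and the widest bar, 7045 bp, is listed for none of the 3 F-box genes.

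Ubiquitin pathway genes with textbook roles were target genes at a share near that of all genes. Over 5 lists with 49 genes, 4 were target genes (8.16%, exact interval 2.27 to 19.6%), beside 6.62% of all protein-coding nuclear genes. Of 8 genes for flowers and organ growth, 3 were target genes (37.5%, exact interval 8.52 to 75.5%, all protein-coding genes 6.62%), namely BB, UBP15 and SAP. All of the lists were chosen with earlier results of these data known. Neither interval can thus show an excess over all genes or the lack of one. SAP (STERILE APETALA, AT5G35770), an F-box gene for flower and ovule development whose annotation holds none of the searched words, had 836.04 inside the gene, on chromosome 5 from 13939275 to 13939515, with no other target gene on the peak. HWS, DA1, DA2, HUB1 and HUB2 were not in the table.

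No target gene was found among 13 F-box genes for hormone, light and clock responses, which were TIR1, AFB1, AFB2, AFB3, COI1, SLY1, SNE, EBF1, EBF2, MAX2, ZTL, FKF1 and LKP2. A count of 0 allows a share of up to 23.1% here, taking 3 genes of the list as the limit and not an exact interval, as for each count of 0 given here. There was none among the 8 SCF core and cullin genes (ASK1, ASK2, CUL1, RBX1, CUL3A, CUL3B, CUL4 and DDB1A, up to 37.5%), and none among the 7 ubiquitin, E1 and E2 genes (UBQ3, UBQ10, UBQ11, UBA1, UBA2, UBC1 and UBC2, up to 42.9%). The E2 genes UBC16 and UBC35, which were target genes, were not on this last list. With so few genes per list, a share under 6.62% could not be told from that of all genes.

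Of 13 other E3 ligase genes, SPA1 (AT2G46340), a partner of the COP1 light signalling ligase, was a target gene (7.69%, exact interval 0.195 to 36%, all protein-coding genes 6.62%). It had 329.32 within 1000 bp downstream, on chromosome 2 from 19021241 to 19021450, a peak shared with AGP16. COP1, DET1, UPL1, UPL3, PUB4, PUB12, PUB13, PUB17, PUB22, PUB23, CHIP and SAUL1 were not in the table. UFO, in comparison, had 373.97 at 2000 to 3000 bp upstream.

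Families named in the gene table were counted as well. Of 35 genes with F-box in a symbol or synonym, 3 were target genes (8.57%, exact interval 1.8 to 23.1%, all protein-coding genes 6.62%), namely KMD1, ARABIDILLO-1 and FBW2, and all 3 were below the median peak. These 35 are a small part of the F-box family, and of the 33 F-box entries above only these 3 are among them. KMD1 was the only target of 4 KMD genes, SUMO3 of 4 SUMO genes and SKIP5 of 8 SKIP genes. Families this small cannot be set apart from the 6.62% of all genes, and the exact intervals of these 3 include it. None of 14 UBQ genes was a target gene, which allows a share of up to 21.4% by the same limit of 3 genes.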

How the data were processed

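Used were 2 deposited tables of the whole series, of peaks and of target genes, on build TAIR10 (per the submitters' processing notes). Not given in the sources used here are the tools for alignment and peak calling, the peak threshold and the use of replicates. Both tables hold a score as made by the authors. The file headers call it a Poisson score in the peak list and a maximum peak score in the target table. The headers of score and position are exchanged in the peak list, so columns were read by their values.

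Members were found by word search in the deposited annotation. Members and lists were chosen with earlier results of these data known. Named were all members at or above the median peak, all SKP1 and U-box members, those in the pathway lists and those with several regions. The rest were given by range, most also by name.

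A RefSeq gene table (TAIR10.1) gave names, gene lengths and neighbourhood. It matched 1916 of 1958 target genes and all 55 members. A peak was linked to a gene within 3000 bp of its span where the scores agreed within 0.006. Strand was inferred where all 5 deposited regions were recovered on 1 strand and not on both, a step tested on simulated data. Family shares used symbols and synonyms, since the table has no descriptions. No sequence was used here. Python 3.11.15, pandas 2.3.3, scipy 1.17.1 and matplotlib 3.10.9 were used. No test was run, since no library has a value of its own.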

Additional observations from a re-analysis of the deposited data

How the results depend on the processing

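Of the 52 genes outside the run, 27 were left with only scores at or above the median peak (51.9%, other target genes 51.6%). With peaks within 1000 bp upstream or inside the gene, 20 were left. These regions were listed for 35.3% and 15.4% of the other target genes, and the joint share was not counted. Where the gene had to be the nearest, 22 were left (42.3%, other linked target genes 57.3%). With F-box as the only word the count was 33. With the words searched in the whole annotation the count was 67. Of the 17 genes with a peak within 1000 bp upstream, 11 reached the median peak, a count not made for other target genes. The median score there was 205.6. For the 672 other target genes with such a peak it was 133.69, which is below the median peak of 139.67. The median of the members was also higher inside the gene (158.45 against 135.33, 3 members). It was lower at 1000 to 2000 bp upstream (143.81 against 146.84), 2000 to 3000 bp upstream (82.37 against 162.95) and downstream (85.33 against 138.72). These differences were not tested. The 3 of 35 genes named F-box fell to 0%, which allows up to 8.57%, with scores at or above the median peak. The median score of the members ran from 143.81 to 163.37 in its 3 alternatives. The count of pathway list genes was 3 in both of its alternatives, and the count of genes with more than 1 peak stayed at 2 with any overlap. The planned count of CArG boxes in promoters was not run, since no sequence was used. No paired analysis was possible because the tables hold no value per library, and for the same reason no library could be left out. Depth is unknown, so what it limits could not be assessed.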

Other observations

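A further 16 target genes have one of the searched words only later in their annotation, often in a comparison with another protein, and 15 of them lie outside the run on chromosome 1. SINAT2 (AT3G58040), a RING ligase gene of the SINA family, had the highest score among them, 844.33 inside the gene, on chromosome 3 from 21489115 to 21489603, a peak listed for no other target gene. AT1G08315, annotated with armadillo repeats, had 376.22 within 1000 bp upstream and shares that peak with TGA9, an anther gene. UBC35 (AT1G78870), an E2 gene, had 289.21 within 1000 bp upstream.

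Lower scores were listed for PP2-B11 (AT1G80110, 128.71 at 2000 to 3000 bp upstream), PUB8 (AT4G21350, 81.04 downstream) and WAVH2 (AT5G65683, 47.19 at 2000 to 3000 bp upstream). The other 9 genes outside the run scored from 48.63 to 220.82, with EDA40 (AT4G37890) at 58.82.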
